A study of Mus musculus with 8 samples.

Results

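The 45 genes described here encode the proteins with which a dividing cell builds its kinetochores, checks their attachment, compacts its chromosomes and holds sister chromatids together. They were taken from the deposited tables by a list of gene symbols. No cutoff was applied to their values, but the list was chosen with earlier results of these data known. All 45 were found among the 13506 genes measured at embryonic day 11.5 (E11.5) and among the 13413 measured at E14.5. Of these, 0 were listed at 0 in any genotype. The list held 13 genes of the inner kinetochore, 10 of the outer kinetochore, 4 of the mitotic checkpoint, 2 Aurora kinases, 8 condensin subunits, 5 cohesin subunits, the 2 core genes of the Smc5/6 complex, and the centriole gene *Cenpj*, which carries a CENP name but is not a kinetochore gene.

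PolyA RNA was sequenced from mouse sympathetic ganglia. At E11.5, *Isl1* CKO embryos (Wnt1-Cre;Isl1 f/f) were compared with control (ctrl) embryos (Wnt1-Cre;Isl1 +/+). Both carried the Cre and a Rosa26-tdTomato reporter, and fluorescence guided the dissection. The sample labels call these genotypes Isl1-/- and wild type. Wnt1-Cre acts in the neural crest, so *Isl1*, which encodes a LIM homeodomain transcription factor, was deleted in crest-derived cells and not in vessels, blood or mesoderm. At E14.5, hypomorphic embryos (Isl1 f-neo/f-neo), in which *Isl1* is reduced in every tissue, were compared with wildtype embryos. Each of the 4 groups had 2 libraries, each from the ganglia of about 10 pooled embryos.

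Expression was given as FPKM, mapped fragments scaled to transcript length and to library size, and the deposited tables hold 1 pooled value per gene and genotype. The depth of the libraries and the spread between them are therefore unknown, and every value is the authors' pooled value. No difference below was given a replicate check or a test here, and the authors' own p-values were not used. For *Mki67*, *Smc2*, *Smc4* and *Bub1*, the paper reports lower levels in the CKO by quantitative PCR on sorted E11.5 sympathetic neurons. Differences are given as log2 ratios of mutant over control FPKM after adding 0.1 to each, and 1.5-fold (0.585 on that scale) was the size counted. In whole ganglia, fewer cells that express a gene and less RNA of that gene per cell cannot be told apart.

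A kinetochore assembles on the centromere in layers. The inner layer is set down on nucleosomes that contain the histone variant CENP-A, and the outer layer grips the spindle microtubules. Checkpoint proteins gather at kinetochores that have no microtubules and delay anaphase until all are attached. Condensin and cohesin are ring complexes built on paired SMC ATPases: condensin folds mitotic chromosomes, whereas cohesin joins sister chromatids and also folds interphase chromatin, so it remains in use in neurons that have left the cell cycle. Sympathetic neuroblasts are unusual among neurons in that they go on dividing after they have begun to express noradrenergic genes.

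The targeted gene differed in the labelled direction at both stages. *Isl1* was 133 FPKM in control and 40.0 FPKM in CKO ganglia, a log2 ratio of -1.73, and 162 FPKM in wildtype and 83.1 FPKM in hypomorphic ganglia, a log2 ratio of -0.96. The ganglia expressed the sympathetic markers searched for, 8 of 8 at both stages, with *Dbh*, the enzyme that makes noradrenaline, at 543 FPKM and *Hand2* at 298 FPKM in E11.5 controls. The summed FPKM of the 8 sympathetic markers was 1652 in control and 1308 in CKO ganglia, with 7 of 8 lower and a median log2 ratio of -0.49, and 2467 in wildtype and 2105 in hypomorphic ganglia, with 5 of 8 lower. The marker sums of other cell types were higher in the CKO. Of the markers searched for, 9 of 13 erythroid, 4 of 6 sensory neuron and 5 of 6 macrophage genes and all of the crest and glial, mesenchymal and endothelial genes were in the E11.5 table. The summed FPKM of the 9 erythroid genes was 10918 in control and 69500 in CKO ganglia, that of 7 neural crest and glial genes 171 and 379, that of 9 mesenchymal genes 595 and 1031, that of 6 endothelial genes 55.3 and 71.0, that of 4 sensory neuron genes 7.94 and 13.0, and that of 5 macrophage genes 31.5 and 77.3. Of the erythroid genes, *Hbb-y* was 7552 FPKM in control and listed at 0 in CKO ganglia, whereas *Hba-x* was 2572 and 53627 FPKM. That 0 may be a failed estimate, and without *Hbb-y* the sums of the other 8 erythroid genes were 3366 and 69500. At E14.5 the sums were 6342 in wildtype and 7725 in hypomorphic ganglia for 11 erythroid genes, 363 and 407 for the crest and glial genes, 1417 and 1582 for the mesenchymal genes, 68.6 and 97.4 for the endothelial genes, 11.8 and 15.4 for 3 sensory neuron genes, and 36.7 and 43.9 for the macrophage genes. The endothelial genes, 6 of 6 of them higher, had a median log2 ratio of 0.50 at E14.5 and 0.37 at E11.5. The part of these cell types in the results below was not tested.

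In *Isl1* CKO ganglia at E11.5, all 45 genes were lower than in controls, and 31 were at least 1.5-fold lower. Of all genes measured, 12.9% were lower and 18.9% higher by that much, and 0 of the 45 were higher by that much. The median log2 ratio of the 45 genes was -0.77, against 0.05 for all genes. Of the 45, 25 lay in the lowest 10% of all E11.5 log2 ratios, which ended at -0.69. *Cenpl* (-0.61) and *Cenpq* (-0.63) lay just inside the 1.5-fold threshold, and *Aurka* (-0.57), *Ska3* (-0.57) and *Spc24* (-0.57) just outside. When both columns were rescaled to the same sum without the erythroid genes, the median of all genes moved to -0.18, the shares of all genes lower and higher became 22.5% and 12.3%, and 42 of the 45 were lower and 0 higher.

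In hypomorphic ganglia at E14.5 the direction was the opposite. Of the 45 genes, 44 were higher than in wildtype ganglia, by a median log2 ratio of 0.45 against 0.003 for all genes. The differences were smaller than at E11.5, and 6 genes were at least 1.5-fold higher: *Ndc80*, *Spc24*, *Cenpw*, *Nuf2*, *Cenph* and *Cenpf*. Of all genes measured, 2.89% were that much higher and 2.12% that much lower, and 0 of the 45 were that much lower. In the highest 10% of all E14.5 log2 ratios, which began at 0.30, lay 31 of the 45. Just inside the 1.5-fold threshold were *Cenpf* (0.59) and *Cenph* (0.60), and just outside it *Ncapg2* (0.58) and *Cenpq* (0.57), so the count of 6 rests on small differences and became 3 with a pseudocount of 1 and 12 after rescaling without erythroid genes. The shares of all genes that much higher were then 1.62% and 3.30%.

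**Figure D1:**
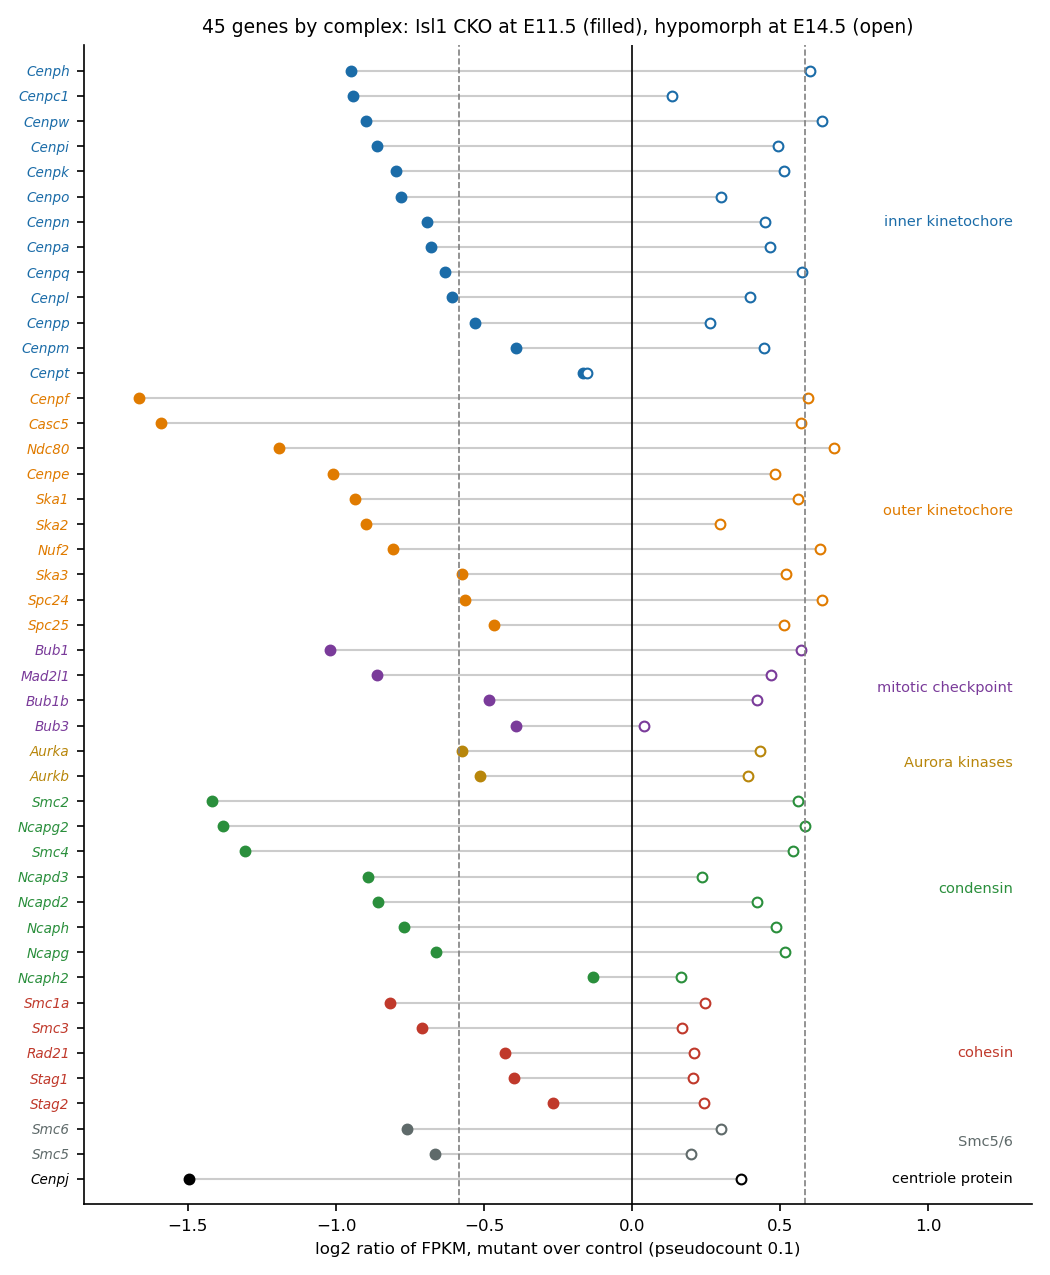
Log2 ratio of FPKM, mutant over control, on the horizontal axis for each of the 45 genes, grouped by complex; filled circles are *Isl1* CKO over control at E11.5, open circles hypomorph over wildtype at E14.5, and dashed lines mark 1.5-fold. All 45 filled circles lie below 0 and 44 open circles above it, *Cenpt* being the exception, and the 5 cohesin genes lie between 0.17 and 0.24 at E14.5.

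Differences in the inner kinetochore were close to those of the whole set. Of its 13 genes, 10 were at least 1.5-fold lower at E11.5 and 2 at least 1.5-fold higher at E14.5, with median log2 ratios of -0.69 and 0.45. *Cenpa*, the centromeric histone variant itself, was the most abundant, at 64.6 FPKM in control and 40.3 FPKM in CKO ganglia at E11.5, and 41.7 FPKM in wildtype and 57.6 FPKM in hypomorphic ganglia at E14.5. The CKO thus held 62.4% of the control level and the hypomorph 138% of the wildtype level. *Cenpc1*, which encodes CENP-C, the protein that bridges the CENP-A nucleosome to the outer layer, was 25.4 and 13.2 FPKM at E11.5 and 17.8 and 19.5 FPKM at E14.5. Its ratio was therefore among the lower ones at E11.5 (-0.94) and among the smaller ones at E14.5 (0.14).

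The other inner kinetochore genes encode the constitutive network around CENP-C, which is made of small subcomplexes. In the CENP-H/I/K/M group, *Cenph* was 24.1 and 12.4 FPKM at E11.5 and 12.4 and 18.9 FPKM at E14.5, and *Cenpk* 18.2 and 10.5 FPKM, then 7.30 and 10.4 FPKM. *Cenpi* was 9.68 and 5.29 FPKM at E11.5 and 5.15 and 7.28 FPKM at E14.5, and *Cenpm* 21.6 and 16.4 FPKM, then 11.5 and 15.7 FPKM. The log2 ratios of these 4 genes ran from -0.95 to -0.39 at E11.5 and from 0.45 to 0.60 at E14.5, a spread of 0.56 in the CKO and of 0.16 in the hypomorph.

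The partners CENP-L and CENP-N, which contact CENP-A and the H/I/K/M group, differed in step. *Cenpl* was 11.2 and 7.29 FPKM at E11.5 and 5.94 and 7.87 FPKM at E14.5, and *Cenpn* 20.6 and 12.7 FPKM, then 13.0 and 17.9 FPKM. The CENP-O/P/Q genes were also lower together in the CKO, with log2 ratios of -0.78 for *Cenpo*, -0.53 for *Cenpp* and -0.63 for *Cenpq*. At E14.5 they were 0.30, 0.26 and 0.57. *Cenpo* was the least abundant of the 45 in all 4 genotypes, at 4.34, 2.48, 3.18 and 3.94 FPKM, and 22.5% of its annotated exon bases are shared with other genes, among them *Adcy3*, so its reads may not all be its own.

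The histone-fold partners CENP-T and CENP-W did not differ in step. *Cenpw* was 15.9 FPKM in control and 8.45 FPKM in CKO ganglia, and 5.48 FPKM in wildtype and 8.61 FPKM in hypomorphic ganglia, log2 ratios of -0.90 and 0.64. *Cenpt* was 17.0 and 15.2 FPKM at E11.5 and 27.2 and 24.5 FPKM at E14.5, log2 ratios of -0.16 and -0.15. It was the only gene of the 45 that was lower in the hypomorph, and the only one that was more abundant in E14.5 wildtype than in E11.5 control ganglia.

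The outer kinetochore had the lowest median log2 ratio at E11.5 of the groups with more than 1 gene, -0.92, and the highest at E14.5, 0.56. Of its 10 genes, 7 were at least 1.5-fold lower in the CKO and 4 at least 1.5-fold higher in the hypomorph. *Cenpf*, a large coiled-coil protein that is made in G2 and coats the kinetochore in early mitosis, had the lowest ratio of the 45. It was 34.4 FPKM in control and 10.8 FPKM in CKO ganglia (-1.67), and 14.3 FPKM in wildtype and 21.7 FPKM in hypomorphic ganglia (0.59). *Casc5*, also named *Knl1*, is the scaffold on which BUB1 and BUB3 dock, and was 14.6 FPKM in control and 4.78 FPKM in CKO ganglia (-1.59), then 6.09 and 9.09 FPKM (0.57). In the mm9 mouse genome, *Cenpf* lies at chr1:191464478-191511965 on the minus strand and *Casc5* at chr2:118872855-118931237 on the plus strand. *Cenpe*, a kinesin motor that carries chromosomes along microtubules, was 25.2 and 12.5 FPKM at E11.5 and 8.54 and 11.99 FPKM at E14.5.

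The NDC80 complex is the main microtubule grip of the kinetochore and holds its 4 subunits in equal numbers. In controls at E11.5 these were 31.0 FPKM for *Ndc80*, 37.9 FPKM for *Nuf2*, 31.1 FPKM for *Spc24* and 52.8 FPKM for *Spc25*. In CKO ganglia the same genes were 13.5, 21.6, 21.0 and 38.2 FPKM. The CKO thus kept unequal shares of the control level, 43.6% for *Ndc80*, 57.0% for *Nuf2*, 67.5% for *Spc24* and 72.3% for *Spc25*. At E14.5 they were 12.1, 17.9, 16.3 and 25.5 FPKM in wildtype ganglia and 19.5, 27.8, 25.5 and 36.4 FPKM in hypomorphic ganglia. There the 4 subunits differed by nearly the same proportion, 161%, 156%, 156% and 143% of wildtype, a spread of 0.17 in log2 ratio against 0.73 at E11.5. The order *Spc25*, *Nuf2*, *Spc24*, *Ndc80*, from high to low FPKM, was the same in all 4 genotypes, with *Spc24* and *Ndc80* almost level in E11.5 controls and *Nuf2* and *Spc24* almost level in the CKO.

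The SKA complex tracks the ends of depolymerising microtubules and helps NDC80 to hold on to them. *Ska2* was its most abundant gene, at 51.9 and 27.8 FPKM at E11.5 and 32.8 and 40.4 FPKM at E14.5. *Ska1* was 8.76 and 4.53 FPKM at E11.5 and 4.58 and 6.79 FPKM at E14.5, and *Ska3* 14.3 and 9.58 FPKM, then 7.11 and 10.2 FPKM. *Ska2* had the smallest ratio of the outer kinetochore at E14.5, 0.30.

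The mitotic checkpoint genes ranged widely, with 2 of 4 at least 1.5-fold lower at E11.5 and median log2 ratios of -0.67 and 0.45. *Bub1*, a kinase that recruits the other checkpoint proteins and marks the centromere for shugoshin, was 25.9 FPKM in control and 12.7 FPKM in CKO ganglia (-1.02), and 10.8 FPKM in wildtype and 16.1 FPKM in hypomorphic ganglia (0.57). *Mad2l1*, whose product is part of the inhibitor of the anaphase-promoting complex, was 65.7 and 36.1 FPKM at E11.5 and 22.0004 and 30.5 FPKM at E14.5. *Bub1b*, which encodes BUBR1 of the same inhibitor, was 39.3 and 28.1 FPKM, then 19.9 and 26.7 FPKM. *Bub3* was the most abundant of the 45 genes in E11.5 control ganglia. It was 116 and 88.0 FPKM at E11.5 and 77.1 and 79.4 FPKM at E14.5, so its ratio was -0.39 in the CKO and 0.04, near the median of all genes, in the hypomorph.

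The Aurora kinases were close to each other at both stages. *Aurka*, which matures the spindle poles, was 44.8 and 30.1 FPKM at E11.5 and 19.2 and 26.0 FPKM at E14.5. *Aurkb*, which corrects faulty attachments as the kinase of the chromosomal passenger complex, was 32.4 and 22.6 FPKM, then 18.8 and 24.7 FPKM. Neither reached 1.5-fold, with log2 ratios of -0.57 and -0.52 in the CKO and 0.43 and 0.39 in the hypomorph.

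Condensin was the other group with large differences, 7 of 8 genes at least 1.5-fold lower in the CKO and median log2 ratios of -0.88 and 0.50. *Smc2* and *Smc4*, the ATPase pair shared by condensin I and condensin II, had ratios among the lowest of the 45. *Smc2* was 65.0 FPKM in control and 24.2 FPKM in CKO ganglia (-1.42), and *Smc4* 81.1 and 32.7 FPKM (-1.31). At E14.5 *Smc2* was 22.7 and 33.5 FPKM (0.56) and *Smc4* 36.4 and 53.1 FPKM (0.54). The pair thus kept 37.3% and 40.3% of its control level in the CKO and stood at 148% and 146% of wildtype in the hypomorph. In mm9, *Smc2* lies at chr4:52452115-52501237 and *Smc4* at chr3:68808660-68838545, both on the plus strand.

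The subunits that are particular to condensin I, which reaches chromosomes after the nuclear envelope breaks down, differed alike. *Ncapd2* was 102 and 56.3 FPKM at E11.5 and 37.9 and 50.9 FPKM at E14.5, *Ncapg* 30.8 and 19.4 FPKM, then 12.03 and 17.2 FPKM, and *Ncaph* 36.1 and 21.1 FPKM, then 18.4 and 25.9 FPKM. Their log2 ratios spanned 0.19 at E11.5 and 0.09 at E14.5. The subunits of condensin II, which is nuclear throughout the cell cycle, did not. *Ncapg2* was 17.8 and 6.77 FPKM at E11.5 (-1.38) and 9.65 and 14.5 FPKM at E14.5 (0.58), *Ncapd3* 12.9 and 6.88 FPKM (-0.89), then 9.79 and 11.5 FPKM (0.23), and *Ncaph2* 47.4 and 43.2 FPKM (-0.13), then 29.3 and 32.9 FPKM (0.16). These 3 genes spanned 1.25 in log2 ratio at E11.5. *Ncaph2* had the smallest difference of the 45 at E11.5, and 18.3% of its exon bases are shared with *Sco2*. *Ncapg* shares 13.3% with *Lcorl*. With *Cenpo* these were the 3 of 43 genes with exon coordinates that shared at least 10% of their exon bases.

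Cohesin was abundant and differed least. Its 5 genes had median log2 ratios of -0.43 in the CKO and 0.21 in the hypomorph, with 2 of 5 at least 1.5-fold lower at E11.5. The SMC pair was the lower part: *Smc1a* was 105 FPKM in control and 59.3 FPKM in CKO ganglia (-0.82) and *Smc3* 75.3 and 46.0 FPKM (-0.71). *Rad21*, the kleisin that closes the ring, was 104 and 77.5 FPKM (-0.43). The STAG subunits, which sit on the kleisin, were 32.9 and 24.97 FPKM for *Stag1* (-0.40) and 51.5 and 42.8 FPKM for *Stag2* (-0.27). At E14.5 all 5 were slightly higher in the hypomorph: *Smc1a* 73.2 and 86.7 FPKM, *Smc3* 45.6 and 51.2 FPKM, *Rad21* 86.2 and 99.6 FPKM, *Stag1* 20.9 and 24.1 FPKM, and *Stag2* 27.4 and 32.4 FPKM. The range of their E14.5 log2 ratios, 0.17 to 0.24, was exceeded by 34 of the 40 genes outside cohesin. Against condensin, the separation was partial at both stages. In the hypomorph, 6 of 8 condensin genes lay above the highest cohesin gene, whereas *Ncapd3* (0.23) lay within the cohesin range and *Ncaph2* (0.16) below it. In the CKO, 7 of 8 lay below the cohesin median and 5 of 8 below the lowest cohesin gene.

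The Smc5/6 complex, which resolves joined DNA after replication and repair, had ratios close to those of cohesin in the hypomorph. *Smc5* was 23.8 and 14.9 FPKM at E11.5 (-0.67) and 16.6 and 19.0 FPKM at E14.5 (0.20), and *Smc6* 38.4 and 22.6 FPKM (-0.76), then 20.4 and 25.2 FPKM (0.30). *Cenpj*, which controls centriole length, was scarce and among the lowest genes in the CKO, at 9.05 and 3.14 FPKM at E11.5 (-1.496) and 4.96 and 6.43 FPKM at E14.5 (0.37).

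**Figure D2:**
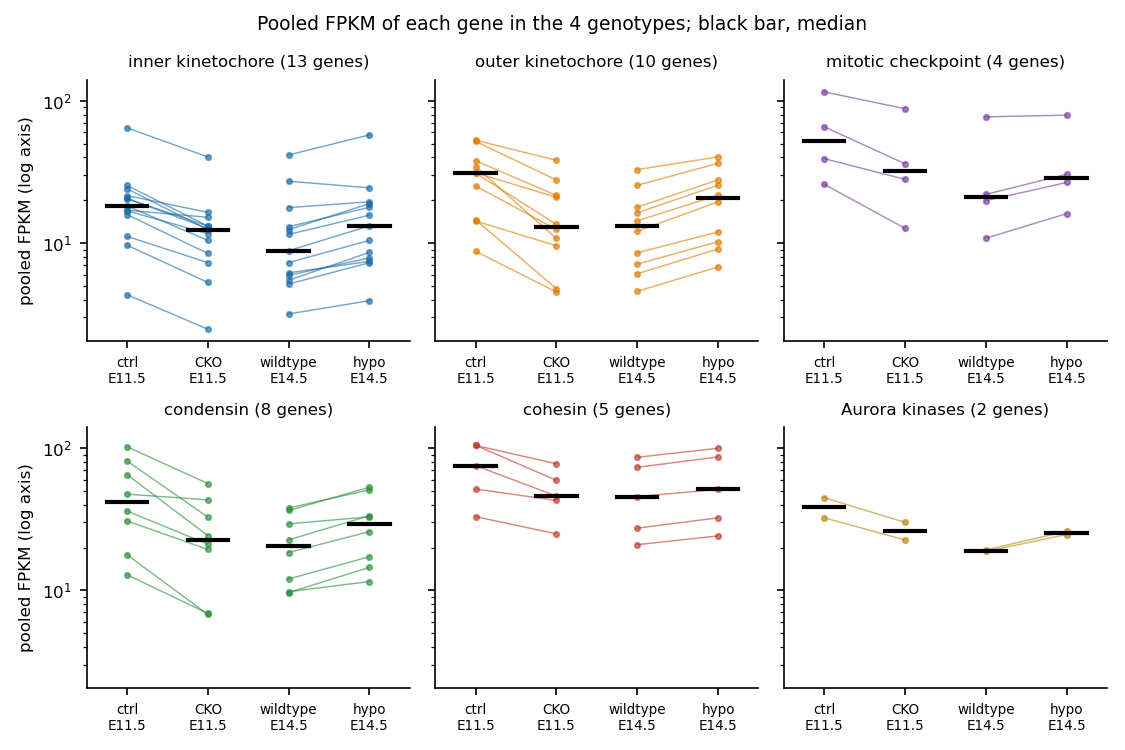
Pooled FPKM (log axis) of each gene in the 4 genotypes, with 1 panel per complex; thin lines join mutant and control of the same stage and black bars are medians. The outer kinetochore median was 31.1 FPKM in E11.5 control, 13.0 in CKO, 13.2 in E14.5 wildtype and 20.6 in hypomorphic ganglia, whereas the cohesin median was 75.3, 46.0, 45.6 and 51.2 FPKM.

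Set out by gene, the E11.5 and E14.5 differences were related among the 45 genes. Pearson's r was -0.53 and Spearman's rho -0.51 over 45 genes, so that genes with lower ratios in the CKO tended to have higher ratios in the hypomorph. This is a description across genes, which are not independent replicates, and both stages carry the same gene lengths and base composition. Over the 12728 genes in both tables rho was 0.06. The opposite directions, lower at E11.5 and higher at E14.5, were seen in 44 of the 45 genes and in 23.7% of the genes in both tables. Only *Cenph*, *Cenpw*, *Ndc80*, *Nuf2* and *Cenpf* were past 1.5-fold at both stages, 5 of 45, where 0.864% of the genes in both tables were at least 1.5-fold lower at E11.5 and that much higher at E14.5.

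**Figure D3:**
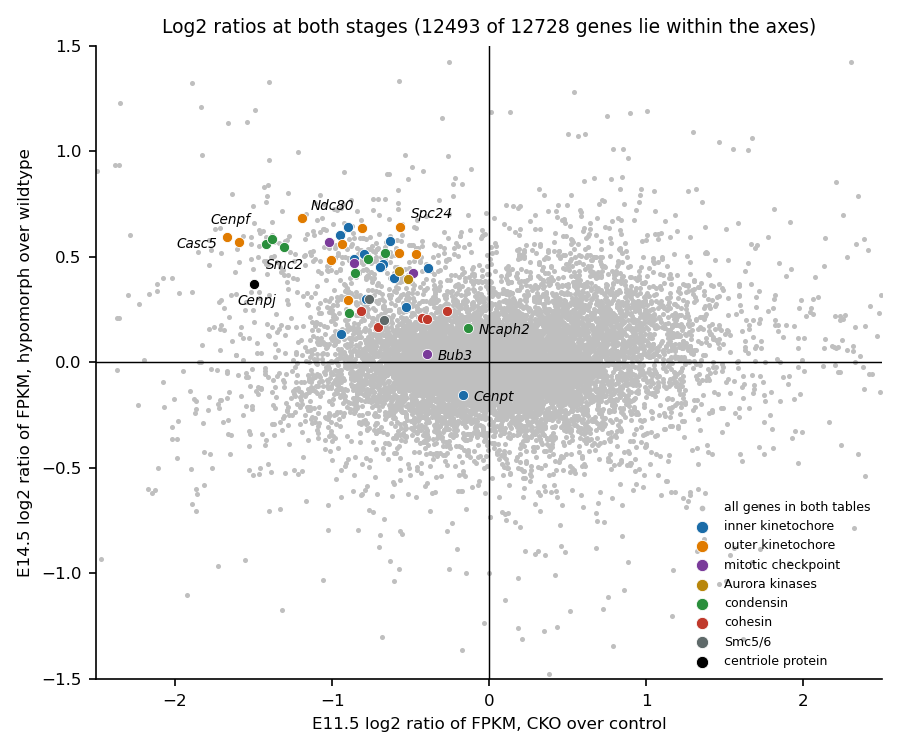
Log2 ratio of FPKM at E11.5 (CKO over control, horizontal) against that at E14.5 (hypomorph over wildtype, vertical); grey points are genes in both tables, of which 12493 of 12728 lie within the axes, and coloured points are the 45 genes by complex. All but *Cenpt* lie in the upper left part, lower at E11.5 and higher at E14.5, and *Ncaph2* and *Bub3* are among those nearest the centre.

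The 2 tables were normalized separately, and the E11.5 controls carried the Cre and the reporter, so age and these differences cannot be told apart when controls are compared between stages. With that limit, 44 of the 45 genes were lower in E14.5 wildtype than in E11.5 control ganglia, 37 of them at least 1.5-fold, where 12.7% of the genes in both tables were that much lower. The median log2 ratio was -0.92, against 0.24 for all genes. By complex the medians were -1.12 for the checkpoint, -1.06 for the outer kinetochore, -1.06 for condensin, -0.999 for the Aurora kinases, -0.90 for the inner kinetochore and -0.65 for cohesin. *Mad2l1* was the furthest below its E11.5 level (-1.57), followed by *Cenpe* (-1.55), *Cenpw* (-1.52) and *Smc2* (-1.52). For 44 of the 45 genes the hypomorphic value lay between the E14.5 wildtype and the E11.5 control value. That count adds little to those already given, 44 genes lower in E14.5 wildtype than in E11.5 control and 44 higher in the hypomorph. The E11.5 CKO value was below the E14.5 wildtype value for 17 genes, *Cenpf*, *Casc5* and *Smc4* among them. The shares over all genes were not counted for these comparisons.

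Transcript length moved with the E11.5 ratios. Over all genes with an annotated length, the median log2 ratio was 0.28 in the shortest 10% of transcripts and -0.31 in the longest 10% (rho -0.29), whereas at E14.5 it was 0.01 and 0.02 (rho 0.03). Among the 43 of the 45 genes with a length, rho was -0.34 at E11.5. *Cenpf* (11137 bases), *Cenpe* (7813 bases), *Casc5* (7800 bases) and *Ncapg2* (6604 bases) were the longest of the 45. When each log2 ratio was centred on the median of genes of like length, in 10 bins, all 43 genes were still below 0 at E11.5, 35 of them at least 1.5-fold lower, with a median of -0.81. Of all genes with a length, 12.1% were that much lower and 17.1% that much higher after centring. After centring, *Ndc80* (-1.37) was below *Cenpf* (-1.35) and *Casc5* (-1.28), *Cenpe* was -0.70, and *Spc24* and *Spc25* were -0.82 and -0.65. *Cenpj* was the lowest of all at -1.42. Centring changed the order of the complexes at E11.5. The outer kinetochore stayed the lowest group with more than 1 gene, at a median of -0.99. That median covers 8 of its 10 genes, because *Ska2* (-0.90 before centring) and *Ska3* (-0.57) had no length. The inner kinetochore, at -0.87 with 11 of 13 genes at least 1.5-fold lower, was then below condensin, at -0.83. Both Aurora kinases were then past 1.5-fold, at a median of -0.73. Cohesin remained the group nearest 0, at a median of -0.48, with *Stag2* at -0.14 and *Stag1* at -0.27. The relation between the stages was a rho of -0.69 over the 43 genes after centring.

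**Figure D4:**
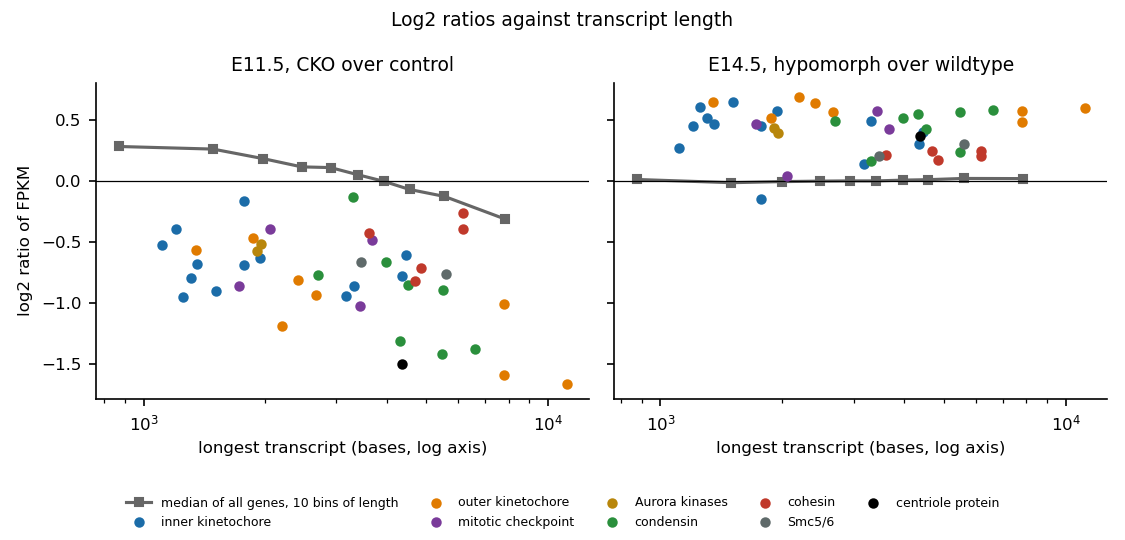
Log2 ratio of FPKM against the length of the longest annotated transcript (log axis) at E11.5 (left) and E14.5 (right); grey squares are medians of all genes in 10 bins of length and coloured points are the 43 genes of the set with a length. The grey line runs from 0.28 to -0.31 at E11.5 and stays near 0 at E14.5, and the coloured points lie below it at E11.5 at every length.

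Genes that work with these complexes or belong to the same structures, but were not on the list, gave a wider view. The list of kinetochore assembly partners includes the MIS12 complex, the loaders of CENP-A and other centromere and kinetochore genes. It had 13 of 14 genes in the tables, of which 7 were at least 1.5-fold lower and 0 that much higher at E11.5. At that stage 2 of the 13 were above 0. The medians were -0.73 and 0.34. Its most abundant genes were *Zwint* (72.0 and 69.5 FPKM at E11.5, -0.05) and *Pmf1* (58.6 and 47.2 FPKM, -0.31), which were less low than the median. Of 10 passenger and checkpoint partners, 6 were at least 1.5-fold lower at E11.5 and 10 of 10 were above 0 at E14.5, with medians of -0.68 and 0.44. *Birc5*, which encodes survivin, was 97.4 and 75.4 FPKM at E11.5 and 42.5 and 57.3 FPKM at E14.5, and *Cdca8*, which encodes borealin, 69.0 and 40.4 FPKM, then 31.8 and 46.1 FPKM. Of 6 genes of mitotic entry, 5 were at least 1.5-fold lower at E11.5 and 1 at least 1.5-fold higher at E14.5, with medians of -0.80 and 0.51. *Top2a*, the topoisomerase that untangles sister DNA, was 156 and 69.8 FPKM, then 66.3 and 101 FPKM, *Ccna2* 147 and 83.3 FPKM, then 55.2 and 79.8 FPKM, and *Mki67* 97.2 and 28.5 FPKM, then 41.7 and 60.3 FPKM.

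The partners of cohesin had a lower median in the CKO than cohesin itself. Of 13 cohesin regulators, 11 were below 0 at E11.5, 8 of them at least 1.5-fold lower, and 2 were above 0. At E14.5, 2 were at least 1.5-fold higher. The medians were -0.66 and 0.32. The 2 higher genes were *Esco2* (5.19 and 9.07 FPKM at E14.5, 0.79) and *Sgol2* (7.74 and 11.8 FPKM, 0.60), which act in S phase and at the mitotic centromere and are named after their values were seen. The most abundant, *Pds5b* and *Pttg1*, were -0.56 and 0.12 at E11.5. The 4 partners of Smc5/6 included 0 genes past 1.5-fold at either stage, with medians of -0.18 and 0.17, and their most abundant genes *Nsmce4a* and *Nsmce1* were -0.37 and 0.12 at E11.5.

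The genes listed for the anaphase-promoting complex, the ubiquitin ligase that the checkpoint holds in check, did not share the pattern as a group. Of the 13 genes on that list, 0 were past 1.5-fold at either stage, with medians of 0.10 at E11.5 and 0.02 at E14.5. *Anapc5* was 245 and 222 FPKM at E11.5 and 224 and 218 FPKM at E14.5, and *Anapc13* 100.3 and 108 FPKM, then 121 and 133 FPKM. This complex also acts in G1 and in postmitotic neurons. The contrast depends partly on which genes were listed, and the genes that follow are named after their values were seen. *Fzr1* was on this list, whereas *Cdc20* was counted with the passenger and checkpoint partners. *Cdc20* was -0.36 at E11.5 and 0.39 at E14.5. *Anapc15* (-0.38, then -0.12) and *Anapc16* (-0.13, then -0.07) were on no list and were below 0 at both stages.

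**Figure D5:**
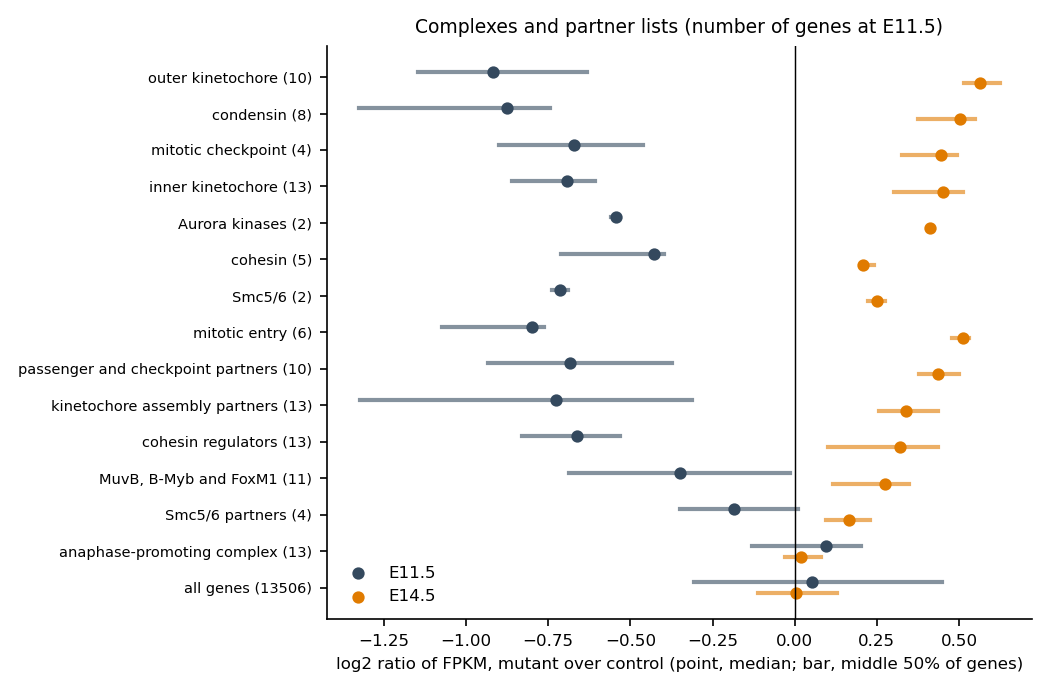
Median log2 ratio of FPKM (points) and the middle 50% of genes (bars) for the complexes and for partner lists at E11.5 (dark) and E14.5 (orange), with all genes at the bottom. The outer kinetochore medians are -0.92 and 0.56, the cohesin medians -0.43 and 0.21, and the anaphase-promoting complex medians 0.10 and 0.02, near those of all genes.

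Promoter sequence was examined because most of these genes differed together at both stages. Many genes expressed in G2 and mitosis carry a CHR, the cell cycle genes homology region, which is bound by MuvB complexes, often with an upstream CCAAT box, which is bound by NF-Y. In the RefSeq promoter windows, which run from 250 bases before to 50 after each annotated start (GRCm38.p6), 39 of the 45 genes were found. *Spc24*, *Ska1*, *Aurkb*, *Smc4*, *Rad21* and *Stag2* had no entry. The CHR letters TTTGAA or TTCGAA, on either strand, were in the windows of 21 of the 39 genes (53.8%), against 15.6% of the 9965 genes of both tables with a window and 21.7% of all 27025 genes with one. CCAAT on either strand was in 23 of 39 (59.0%), against 43.0%, and both words were in 14 of 39 (35.9%), against 6.52%. The word is short, and a match is not a measured binding site.

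By complex, the CHR letters were in 6 of 7 condensin genes, 3 of 4 checkpoint genes, 5 of 8 outer and 5 of 13 inner kinetochore genes, 0 of 3 cohesin genes, and 1 of 12 genes of the anaphase-promoting complex. In 16 of the 21 genes a word began within 50 bases of a start. How often the word lies there in other promoters was not counted, so the position is not shown to be particular to these genes. To show that position, 30 bases around the word, in the direction of the gene, follow for up to 2 genes per complex with the lowest E11.5 ratios among those with a single window in which the 30 bases fit, the CHR letters being in capitals (TTCAAA is TTTGAA on the other strand). The genes to print were chosen after their values had been seen.
*Cenpw*, chr10:30200548-30200577, minus strand: tccggcggccaaTTCAAAtcgaccactcgg
*Cenpn*, chr8:116921719-116921748, plus strand: gccattggcggcTTCAAAagcacctcggcg
*Cenpf*, chr1:189688067-189688096, minus strand: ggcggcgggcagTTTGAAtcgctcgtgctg
*Casc5*, chr2:119047138-119047167, plus strand: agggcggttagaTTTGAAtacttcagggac
*Bub1*, chr2:127831828-127831857, minus strand: ctgcgcggggaaTTCGAAtcgccggcggcc
*Aurka*, chr2:172370521-172370550, minus strand: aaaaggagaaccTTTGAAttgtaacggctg
*Smc2*, chr4:52439235-52439264, plus strand: ctcgcgccgaaaTTCAAAggaacagttccg
*Ncapg2*, chr12:116405406-116405435, plus strand: tacgcgggtgtgTTTGAAtctggtccgagc

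With the first transcribed base as 1, the word begins at -25 in *Cenpw*, -9 in *Cenpn*, -18 in *Ncapg2*, 3 in *Cenpf*, 15 in *Bub1*, 27 in *Smc2*, 32 in *Casc5* and 33 in *Aurka*. In *Cenpw* its first letter is also the last letter of a CCAAT that begins at -29. The 150 bases before the start follow for *Cenpf* and *Bub1*, which have the CHR letters just after the start, and for *Smc1a*, a cohesin gene with no CHR letters in its window, with CCAAT, or ATTGG for the other strand, in capitals.
*Cenpf*, chr1:189688087-189688236, minus strand: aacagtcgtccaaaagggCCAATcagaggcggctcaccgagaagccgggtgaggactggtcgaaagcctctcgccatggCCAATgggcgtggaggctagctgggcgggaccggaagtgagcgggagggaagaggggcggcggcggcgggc
*Bub1*, chr2:127831860-127832009, minus strand: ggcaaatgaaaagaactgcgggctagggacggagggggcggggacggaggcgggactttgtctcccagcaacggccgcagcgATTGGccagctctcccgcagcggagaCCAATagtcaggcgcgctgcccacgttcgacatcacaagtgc
*Smc1a*, chrX:152016278-152016427, plus strand: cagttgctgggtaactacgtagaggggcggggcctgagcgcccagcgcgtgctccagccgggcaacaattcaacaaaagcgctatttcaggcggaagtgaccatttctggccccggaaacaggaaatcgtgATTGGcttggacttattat

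*Cenpf* and *Bub1* each had 2 CCAAT words in this stretch and *Smc1a* had 1, at -19. Within the 39 genes, the log2 ratios of genes with and without the CHR letters overlapped. The median was -0.69 at E11.5 and 0.47 at E14.5 for the 21 genes with the letters, and -0.80 and 0.33 for the 18 without. *Cenpj* (-1.496 at E11.5) and *Nuf2* (0.63 at E14.5) were among those without, and *Ncaph2* (-0.13) and *Bub3* (0.04 at E14.5) among those with them.

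The genes of the MuvB complex and its partners were themselves listed. Of 11 genes, 4 were at least 1.5-fold lower at E11.5 and 0 at least 1.5-fold higher at E14.5, with medians of -0.35 and 0.27. At E11.5, 8 of the 11 were below 0 and 3 above. The most abundant were *Rbbp4*, a histone-binding subunit, at 133 and 126 FPKM at E11.5 (-0.07), and *Tfdp1*, the partner of the E2F proteins, at 72.5 and 49.6 FPKM (-0.55). The lowest at E11.5, named after their values were seen, were *Foxm1* (-1.22, then 0.39 at E14.5) and *Mybl2* (-1.17, then 0.58). At E14.5 *Mybl2* lay just outside the 1.5-fold threshold. The CHR letters were in the windows of 4 of 5 genes of mitotic entry, 6 of 8 passenger and checkpoint partners, 6 of 10 cohesin regulators and 4 of 11 kinetochore assembly partners.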

How the data were processed

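The authors prepared polyA RNA libraries from pooled sympathetic ganglia, aligned paired-end reads to mm9 with TopHat and estimated expression with cuffdiff. The submitters' processing notes list Bowtie, TopHat 1.3.1, Cuffdiff 1.3.0 and the build dm3, and the versions differ from those in the study's methods. The deposited FPKM values combine the 2 libraries of a genotype, and the deposited tables keep genes that reach an FPKM of 1 in the mutant or the control. The deposited log2 fold changes and p-values of the authors' own comparison were not used. Depth and precision are not known. Reads were not stated to be counted by strand, so overlapping genes cannot be told apart.

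Log2 ratios were computed from FPKM with a pseudocount of 0.1 in Python 3.11.15 with pandas 2.3.3, numpy 2.4.6 and scipy 1.17.1, with plots by matplotlib 3.10.9, and the steps were tested on simulated data. Every gene of the set could be named, and of other lists the 2 genes most abundant in E11.5 controls, *Isl1* and *Mki67*; others are marked as chosen later. The genes, lists and thresholds were chosen with earlier results of these data known. Transcript lengths and gene positions came from GENCODE vM1 (mm9), which gave a length for 92.2% (E11.5) and 92.3% (E14.5) of genes, and promoter windows from RefSeq (GRCm38.p6). Symbols were matched as given, *Casc5* by its current symbol. Exon sharing counted bases covered by exons of both genes on either strand. With 1 pooled value per genotype no test was run. Alternatives were pseudocounts of 1 and 0.01, a minimum FPKM of 5 in the higher genotype, centring on the median of all genes, rescaling without erythroid genes, scaling both control columns to the same sum, thresholds of 2-fold and 1.2-fold, and, added after the data were seen, centring within 10 bins of transcript length. A count was taken as moved past 1.5 times, a median past 0.26 and a single gene past 0.58 on the log2 scale.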

Additional observations from a re-analysis of the deposited data

Results flagged for a closer look

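The set is flagged because its difference between mutant and control ganglia ran opposite ways at the 2 stages. Each stage has 1 pooled value per genotype, the mutants differ in allele and tissue range as well as in age, and the difference between stages was not tested. The median log2 ratio of the 45 genes was -0.77 at E11.5 and 0.45 at E14.5. By complex the medians were -0.69 and 0.45 for the inner kinetochore, -0.92 and 0.56 for the outer kinetochore, -0.67 and 0.45 for the mitotic checkpoint, and -0.55 and 0.41 for the Aurora kinases. They were -0.88 and 0.50 for condensin, -0.43 and 0.21 for cohesin, and -0.71 and 0.25 for Smc5/6.

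In addition, 5 genes were past 1.5-fold in opposite directions at the 2 stages, against 0.864% of the genes in both tables. *Cenph* was -0.95 at E11.5 and 0.60 at E14.5, *Cenpw* -0.90 and 0.64, *Ndc80* -1.19 and 0.68, *Nuf2* -0.81 and 0.63, and *Cenpf* -1.67 and 0.59.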

How the results depend on the processing

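No paired analysis was possible because the deposited columns pool the 2 libraries of a genotype and carry no replicate numbers, and for the same reason no replicate could be left out. Of 144 recomputed medians and counts, 139 kept their direction and stayed within the stated limits, and 0 of 534 recomputed single-gene log2 ratios changed direction or moved past theirs. The count of genes lower at E11.5 was 9 at a 2-fold threshold instead of 31. The count of genes higher at E14.5 was 0 at 2-fold and 34 at 1.2-fold, 3 with a pseudocount of 1, and 12 after rescaling without erythroid genes, instead of 6, since many of the genes lie close to 1.5-fold. Of all genes, 1.62% were at least 1.5-fold higher with that pseudocount and 3.30% after that rescaling. Shares over all genes at 2-fold and 1.2-fold were not counted. The median at E11.5 ranged from -1.01 after rescaling without erythroid genes to -0.74 with a pseudocount of 1. FPKM columns hold no read numbers, so what depth limits could not be stated.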
